A study of Mus musculus with 21 samples.

Results

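Undifferentiated mouse embryonic stem cells without a working Cxxc5 gene were compared with wild type cells at day 0, the start of an embryoid body experiment. The comparison set 2 knockout libraries against 2 wild type libraries, 4 of the 21 samples of the series, and took every gene with a mean FPKM of at least 1 over these 4 libraries, 11789 of the 24458 genes listed. FPKM divides the reads of a gene by its transcript length and by the size of the library. The cells were labelled as strain mixed 129/C57BL/6 at passages 15 to 18, and their growth protocol names gelatin and serum with LIF. Embryoid bodies, clumps of differentiating stem cells, were then made in hanging drops and sampled at days 3 and 6, again with 2 libraries of each genotype. Each replicate was an independent stem cell line of its genotype. A p-value here measures the spread between replicate libraries, pooled over the 8 libraries of days 0 and 3 as if each were independent. Whatever set the lines of a genotype apart before the experiment is part of each difference. Neither the deleted part of Cxxc5 nor the way the lines were made is given in the sources used here.

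Cxxc5 is also named Rinf. Its CXXC zinc finger is a fold known to bind CpG dinucleotides that carry no methyl group. Such sites are dense at the promoters of many genes. In serum with LIF, mouse stem cells hold a mixed state in which factors of naive pluripotency coexist with low levels of genes of the later, formative epiblast, and signals through FGF receptors and Wnt ligands shift the balance between them. The cells are epithelial, joined by E-cadherin and tight junctions.

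Cxxc5 (chromosome 18, 35829379 to 35861693 in mm10) stood at 31.4 and 25.1 FPKM in wild type replicates 1 and 2 and at 6.87 and 8.64 FPKM in knockout replicates 1 and 2. The knockout libraries were the low ones and the genotypes did not overlap. Cxxc5 fell to 27.5% of the wild type mean (28.2 ± 4.48 against 7.76 ± 1.25 FPKM, SD, n = 2). The log2 fold change was -1.74 with an SE of 0.18 (adjusted p = 0.00927 by limma, or 0.106 without knockout replicate 1 and 0.0551 without knockout replicate 2). Fold changes are given on the scale of log2(FPKM + 1), which understates those of low genes.

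Among the genes tested, 314 were higher in knockout (2.66% of genes tested) and 240 were lower (2.04%), at an adjusted p under 0.05 by limma. Each count of list members below is to be read against these shares. The changes were mostly small. The median log2 fold change was 0.48 among the genes that rose and -0.48 among those that fell, the smallest were 0.22 and -0.21, and 20 genes rose and 10 fell by at least 1 on the log2(FPKM + 1) scale. The median over all genes tested was -0.01. The 2 knockout libraries lay above both wild type libraries for 2788 genes (23.6% of genes tested) and below both for 3132 (26.6%), all called genes among them. For a single gene, an exact two-sided permutation test over 4 libraries cannot give a p under 0.333, so each adjusted p comes from limma, fitted across all genes.

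The number of calls depended on which libraries gave the estimate of the spread. The fit used the 8 libraries of days 0 and 3. The 4 day 0 libraries alone gave 18 higher and 10 lower genes, 20 of them among the 554 calls, and all 12 libraries of days 0, 3 and 6 gave 68 and 41, all 109 among them. The genes past the threshold in all 3 fits were 7: Cxxc5, Fgfbp1, Fgfr2, Klhl13, Nid1, Slc40a1 and Mir1901. Without knockout replicate 1 there were 15 higher and 2 lower genes, and without knockout replicate 2 there were 25 and 10. Without wild type replicate 1 there were 142 and 85, and without wild type replicate 2, 599 and 706. Slc40a1, Fgfr2, Lad1, Prag1 and Scarna3a passed without any 1 of the 4 libraries (Lad1 and Prag1 are named for this after their values were seen). Of the 91 genes named with a call, 3 kept it without knockout replicate 1 (Slc40a1, Fgfr2 and Scarna3a), 10 without knockout replicate 2, 37 without wild type replicate 1 and 80 without wild type replicate 2. The other named calls were thus lost without knockout replicate 1.

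**Figure D1:**
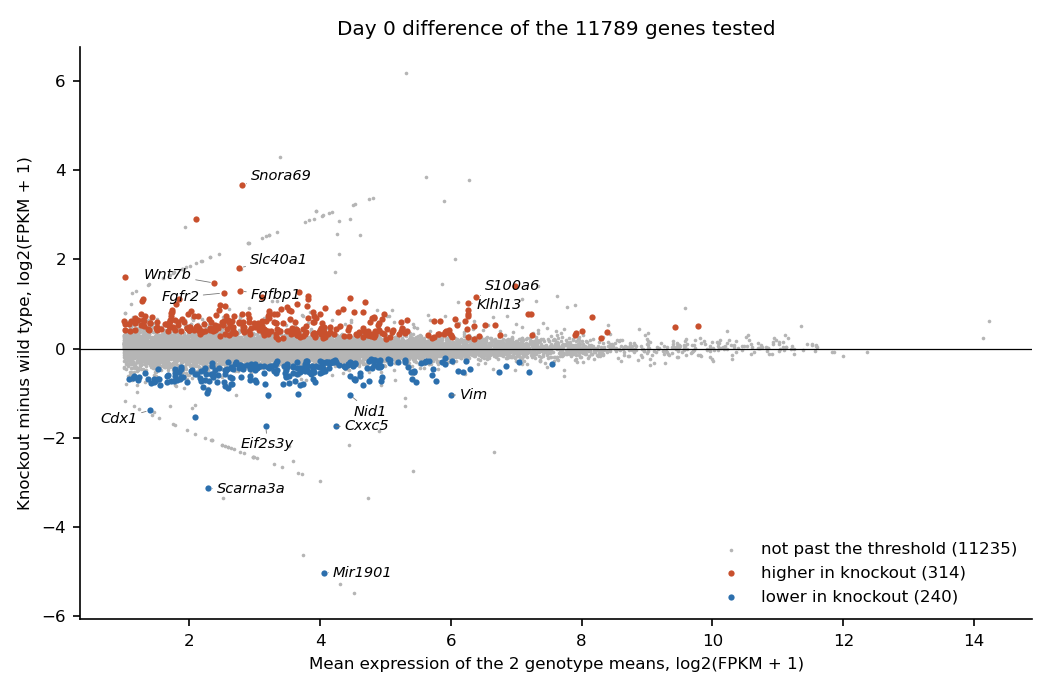
Each point is 1 of the 11789 genes tested, with the mean of the genotype means on the horizontal axis and knockout minus wild type at day 0 on the vertical axis, both as log2(FPKM + 1). The 314 genes called higher and the 240 called lower lie mostly within 1 of zero.

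Slc40a1, Wnt7b, Fgfbp1, Rhox6 and Fgfr2 had the largest rises among protein-coding genes other than predicted ones. Slc40a1 (chromosome 1, 45908070 to 45926532) encodes ferroportin, the channel through which cells export iron. It stood at 2.33 and 1.73 FPKM in wild type and at 9.15 and 10.03 in knockout. Both knockout libraries were higher, and Slc40a1 rose by 1.81 on the log2 scale (SE 0.10, adjusted p = 0.00242 by limma, or 0.0177 with the 4 day 0 libraries alone). It passed in all 15 alternative settings. Of 14 tested genes of iron handling it was the 1 that passed, with 0 lower and a list median of 0.02, which turns to -0.01 with quantile normalization. The iron importer gene Tfrc (185 and 150 against 160 and 161 FPKM, log2 fold change -0.05) and the ferritin gene Fth1 (209 and 257 against 278 and 295 FPKM, log2 fold change 0.30) did not pass.

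Fgfr2 (chromosome 7, 130162451 to 130266808) encodes a receptor tyrosine kinase for fibroblast growth factors. Its 4 values were 2.52 and 2.31 FPKM in wild type and 6.92 and 7.31 FPKM in knockout. The spread within each genotype was small beside the gap between them, and Fgfr2 rose by 1.25 on the log2 scale (SE 0.09, adjusted p = 0.00763). Fgfbp1 (chromosome 5, 43978858 to 43981828), for a secreted protein that binds fibroblast growth factors held in the matrix, rose from 2.89 and 3.06 to 9.26 and 8.23 FPKM (log2 fold change 1.29, adjusted p = 0.00951). Without knockout replicate 1 or 2 its adjusted p was 0.106 or 0.0659. These were 2 of the 5 tested genes for FGF receptors and binding proteins, a group assembled after values were seen. Fgfr1 (18.9 and 18.8 against 21.9 and 23.6 FPKM), Fgfr3 (1.74 and 1.71 against 1.52 and 1.41 FPKM) and Fgfrl1 did not pass, although Fgfr1 was called higher with median scaling (adjusted p = 0.0467, against 0.0545 as reported).

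Because the CXXC finger binds CpG, the promoters of Fgfr2 and of Nid1, the protein-coding gene with the lowest adjusted p among those that fell, are shown with each CpG in capitals. They are the 250 bases before the transcript start in the RefSeq promoter table (GRCm38.p6, the assembly of mm10), written 5′ to 3′ on the strand of the gene, at chr7:130266809-130267058 on the minus strand for Fgfr2 and chr13:13437352-13437601 on the plus strand for Nid1.
Fgfr2: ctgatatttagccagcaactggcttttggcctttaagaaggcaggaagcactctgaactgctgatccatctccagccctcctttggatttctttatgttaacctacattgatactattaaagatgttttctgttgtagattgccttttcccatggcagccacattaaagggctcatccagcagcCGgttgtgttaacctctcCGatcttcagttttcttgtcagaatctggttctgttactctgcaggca
Nid1: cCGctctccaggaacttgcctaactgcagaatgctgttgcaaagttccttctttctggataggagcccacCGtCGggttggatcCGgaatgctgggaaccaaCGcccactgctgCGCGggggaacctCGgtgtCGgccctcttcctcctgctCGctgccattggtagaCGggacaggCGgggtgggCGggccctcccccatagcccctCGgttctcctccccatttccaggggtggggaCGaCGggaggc
The Fgfr2 window held 2 CpG and the Nid1 window 16. Over the genes with an entry in that table, the median was 16 CpG for the 252 genes higher in knockout, for the 195 lower and for all 9345 tested.

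Among genes for Wnt ligands, receptors and their secretion, 13 were tested, of which 2 rose and 1 fell, with a list median of -0.13. With quantile normalization Wls, for the carrier that brings Wnt ligands to the cell surface, was also called higher. Wnt7b (chromosome 15, 85535437 to 85581821) encodes a secreted ligand. It stood at 2.10 and 1.45 FPKM in wild type and 5.77 and 7.61 in knockout. Wnt7b rose by 1.47 on the log2 scale (SE 0.22, adjusted p = 0.0234, or 0.0564 with the 4 day 0 libraries alone). The ligand gene Wnt3a was lower in level but moved the same way, from 0.697 and 0.584 to 1.44 and 1.36 FPKM (log2 fold change 0.55, adjusted p = 0.0459). The receptor gene Fzd10 fell from 3.16 and 3.81 to 1.78 and 1.82 FPKM (log2 fold change -0.68, adjusted p = 0.0213). Of 8 tested genes that canonical Wnt signalling induces, 1 fell and 0 rose, with a median of -0.26. The gene that fell was the homeobox gene Cdx1 (chromosome 18, 61018862 to 61036199), from 2.27 and 3.40 to 0.537 and 0.378 FPKM (log2 fold change -1.38, adjusted p = 0.0150 by limma). With the 4 day 0 libraries alone its adjusted p was 0.0612 by limma. At day 3 Cdx1 was near 0, at 0.133 and 0.0387 FPKM in wild type and 0.0212 and 0.125 in knockout. Axin2, a feedback inhibitor of the pathway, was at 5.14 and 5.90 against 3.72 and 3.83 FPKM and did not pass (log2 fold change -0.45, adjusted p = 0.0809). Lef1, a transcription factor of the pathway, was at 14.9 and 18.0 against 11.4 and 10.8 FPKM and did not pass either.

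Of 12 tested genes of the YAP and TEAD pathway, which reports cell contact and tension, 4 rose and 0 fell. The list median was 0.16, and 2.66% of all genes tested were higher and 2.04% lower. The effector gene Wwtr1 was also called lower with median scaling or quantile normalization (adjusted p = 0.0469 and 0.0493 by limma). Cyr61 (chromosome 3, 145646971 to 145649985) and Ctgf (chromosome 10, 24595442 to 24598683) encode matricellular proteins and are commonly read as targets of YAP. Cyr61 stood at 4.40 and 4.31 FPKM in wild type and 12.4 and 9.59 in knockout, a rise of 1.15 on the log2 scale (SE 0.14, adjusted p = 0.0160). Ctgf stood at 7.17 and 8.53 against 22.1 and 14.9 FPKM and rose by 1.12 (SE 0.17, adjusted p = 0.0236). In both genes knockout replicate 1 was the highest library. Amotl2, for an angiomotin that holds YAP in the cytoplasm, rose from 6.24 and 6.76 to 12.6 and 11.2 FPKM (log2 fold change 0.78, adjusted p = 0.00927). Ptpn14, for a phosphatase that restrains YAP, rose from 1.67 and 1.80 to 3.20 and 2.54 FPKM (log2 fold change 0.49, adjusted p = 0.0432 by limma). Amotl2 and Ptpn14 were also highest in knockout replicate 1. Without that library the log2 fold changes of Cyr61, Ctgf, Amotl2 and Ptpn14 were 0.98, 0.85, 0.70 and 0.37. The genes of the effectors did not pass: Yap1 was at 48.2 and 43.6 against 48.7 and 49.2 FPKM, and Wwtr1 at 7.18 and 5.72 against 4.36 and 4.49 FPKM (log2 fold change -0.45, adjusted p = 0.0508). Tead1 and Tead4 had log2 values of 0.07 and -0.03.

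The promoters of 3 of these 4 genes had an entry in the RefSeq table, and each held the core of the TEAD motif, GGAATG, or its reverse complement CATTCC. They are shown with that core in capitals, as the 250 bases before the start in GRCm38.p6, at chr3:145649986-145650235 on the minus strand for Cyr61 (Ccn1 in RefSeq), chr9:102717554-102717803 on the plus strand for Amotl2 and chr1:189728018-189728267 on the plus strand for Ptpn14.
Cyr61: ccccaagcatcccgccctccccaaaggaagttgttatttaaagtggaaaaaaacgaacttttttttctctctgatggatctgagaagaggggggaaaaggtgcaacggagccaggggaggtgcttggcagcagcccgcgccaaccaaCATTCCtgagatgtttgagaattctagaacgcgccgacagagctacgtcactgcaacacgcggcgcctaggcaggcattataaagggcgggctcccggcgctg
Amotl2: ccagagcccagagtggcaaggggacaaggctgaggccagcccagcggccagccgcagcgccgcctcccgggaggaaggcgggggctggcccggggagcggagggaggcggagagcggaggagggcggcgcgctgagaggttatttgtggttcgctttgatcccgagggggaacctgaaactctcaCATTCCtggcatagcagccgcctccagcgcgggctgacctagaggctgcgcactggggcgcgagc
Ptpn14: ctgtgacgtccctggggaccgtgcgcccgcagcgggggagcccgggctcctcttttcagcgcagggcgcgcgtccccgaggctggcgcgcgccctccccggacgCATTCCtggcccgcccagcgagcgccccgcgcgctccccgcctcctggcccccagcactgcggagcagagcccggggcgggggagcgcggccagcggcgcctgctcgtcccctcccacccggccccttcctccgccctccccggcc
The cores began 103, 65 and 146 bases before the start. A gene was counted if any of its promoters held a core on either strand. This was so for 7 of the 9 tested members of the list with an entry. Among genes with an entry, it was so for 20.2% of those higher in knockout, 16.4% of those lower and 12.7% of all tested. Counted by promoter and not by gene, 12.6% of all 32851 promoters in the table held a core. A match is a description of these letters and not a bound site. The Nid1 window held 1 such core and the Fgfr2 window 0.

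**Figure D2:**
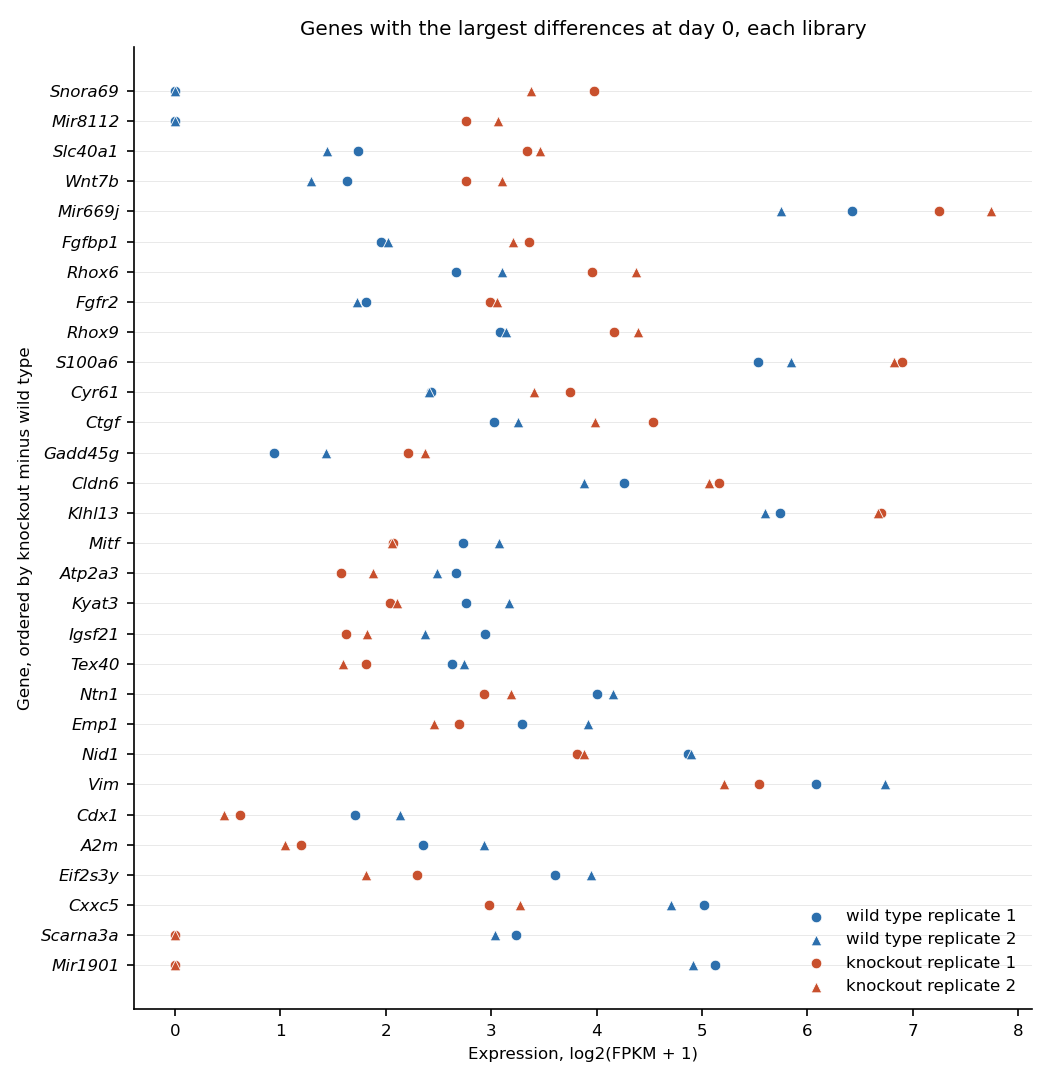
Each row is a gene and each point a library, as log2(FPKM + 1), for the 15 genes that rose and the 15 that fell with the largest fold changes, predicted genes left out. Wild type is blue and knockout orange, circles are replicate 1 and triangles replicate 2. In every row the genotypes lie apart, as the choice of these genes required, and Fgfr2 and Nid1 have the replicates of each genotype close together.

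Several genes of epithelial junctions and of the simple epithelial cytoskeleton rose, and Vim and Zeb1 fell. Of 11 tested epithelial and mesenchymal genes, 3 rose and 2 fell, against 2.66% and 2.04% of all genes tested, with a median of 0.23. The genes that rose were Esrp1, an epithelial splicing factor (22.2 and 19.4 against 33.8 and 34.6 FPKM, log2 fold change 0.70, adjusted p = 0.00927), and the tight junction genes Cldn6 (18.2 and 13.7 against 34.9 and 32.6 FPKM, log2 fold change 1.05, adjusted p = 0.0178) and Cldn7 (11.3 and 8.44 against 18.1 and 17.8 FPKM, log2 fold change 0.81, adjusted p = 0.0234). The genes that fell belong to mesenchymal cells. Vim, for the intermediate filament vimentin, fell from 66.7 and 106 to 45.4 and 35.9 FPKM (log2 fold change -1.04, adjusted p = 0.0389). Zeb1, a repressor of epithelial genes, fell from 3.22 and 3.67 to 1.81 and 1.96 FPKM (log2 fold change -0.62, adjusted p = 0.0266). Cdh1, for E-cadherin, was at 196 and 166 against 233 and 227 FPKM and did not pass (log2 fold change 0.35, adjusted p = 0.0739). The fibronectin gene Fn1 (-0.17), the tight junction genes Ocln (0.05) and Tjp1 (-0.01) and the mesenchymal cadherin gene Cdh2 (1.12 and 1.43 against 1.83 and 1.63 FPKM, log2 fold change 0.26) did not pass either.

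In families gathered after values were seen, 5 of the 7 tested claudin genes rose and 0 fell: Cldn3 (1.99 and 1.85 against 3.996 and 4.56 FPKM), Cldn4 (26.3 and 18.3 against 39.2 and 37.98 FPKM), Cldn6, Cldn7 and Cldn9 (0.409 and 0.790 against 1.41 and 1.46 FPKM). The claudin median was 0.79, and Cldn12 and Cldn20 did not pass. With median scaling 4 claudin genes rose. Shares over all genes tested were 2.66% higher and 2.04% lower. Of 6 tested keratin genes, Krt8 (7.34 and 7.36 against 16.7 and 14.7 FPKM, log2 fold change 1.00, adjusted p = 0.0165) and Krt18 (6.25 and 7.21 against 14.6 and 12.9 FPKM, log2 fold change 0.93, adjusted p = 0.0204) rose, the partners that form the filaments of simple epithelia. Krt19 (8.02 and 7.46 against 7.17 and 5.55 FPKM) and Krt17 did not pass. Of 7 tested S100 genes, for small calcium-binding proteins, 2 rose: S100a6 (45.4 and 56.6 against 118 and 112 FPKM, log2 fold change 1.17, adjusted p = 0.00951) and S100a11 (94.6 and 95.5 against 118 and 117 FPKM, log2 fold change 0.31, adjusted p = 0.0272). Without knockout replicate 1 or 2, S100a6 had an adjusted p of 0.113 or 0.0693. Gja1, for the gap junction protein connexin 43, rose from 40.4 and 42.3 to 64.7 and 62.9 FPKM (log2 fold change 0.61, adjusted p = 0.00927), 1 of 5 tested connexins.

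Nid1 (chromosome 13, 13437602 to 13512275), for the basement membrane linker nidogen-1, stood at 28.2 and 28.8 FPKM in wild type and at 13.05 and 13.7 in knockout. The 2 genotypes were each tight, and Nid1 fell by 1.04 on the log2 scale (SE 0.08, adjusted p = 0.00763). Its adjusted p without knockout replicate 1 was 0.0683. Its relative Nid2 was at 63.3 and 59.6 against 55.7 and 55.4 FPKM and did not pass. Of the 9 tested genes for laminins and nidogens, grouped after values were seen, 1 other passed: the laminin chain gene Lamb1 rose from 22.7 and 23.2 to 29.3 and 27.7 FPKM (log2 fold change 0.30, adjusted p = 0.0272). Of 13 tested integrin genes and their partners, Itga1 and Itgb5 rose (0.43 and 0.42) and Itga9 fell (-0.57). A2m, for the secreted protease inhibitor alpha-2-macroglobulin, fell from 4.12 and 6.62 to 1.28 and 1.06 FPKM (log2 fold change -1.53, adjusted p = 0.0148). The guidance factor gene Ntn1 fell from 15.0 and 16.8 to 6.65 and 8.11 FPKM (log2 fold change -1.02, adjusted p = 0.0346), and the membrane protein gene Emp1 from 8.77 and 14.1 to 5.46 and 4.48 FPKM (log2 fold change -1.03, adjusted p = 0.0434).

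Of 13 tested ephrins and Eph receptors, which signal between touching cells, 3 rose and 0 fell, with a median of 0.03. Among all genes tested, 2.66% were higher and 2.04% lower. Efnb2, for a transmembrane ligand, rose from 2.75 and 3.06 to 6.11 and 6.05 FPKM (log2 fold change 0.86, adjusted p = 0.00926). The ligand gene Efna4 (0.50) and the receptor gene Epha1 (0.40) rose by less, and Epha2, at 33.6 and 34.7 against 35.5 and 32.4 FPKM, did not pass. Of 10 tested semaphorin genes, grouped after values were seen, Sema6a rose from 1.14 and 1.44 to 4.30 and 2.97 FPKM (log2 fold change 1.01, adjusted p = 0.0202). Sema4a (-0.52) and Sema5b (-0.76) fell.

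General pluripotency genes were expressed in both genotypes. Of 14 tested general pluripotency genes 0 passed by limma (3 at an unadjusted p under 0.05), the largest difference in size being -0.33, in Tdgf1, for a Nodal co-receptor. Tdgf1 stood at 739 and 644 against 543 and 552 FPKM, without overlap (adjusted p = 0.0543), and was called lower with median scaling (adjusted p = 0.0479). Pou5f1, which encodes OCT4, stood at 357 and 429 FPKM in wild type and 396 and 412 in knockout, and Sox2 at 213 and 222 against 217 and 229. Their libraries overlapped.

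Of 14 tested naive pluripotency genes, 1 rose and 1 fell, and 13 had a negative fold change, with a list median of -0.34. The median over all genes tested was -0.01. Tbx3, a transcription factor of the naive state, fell from 31.2 and 34.1 to 18.6 and 19.8 FPKM (log2 fold change -0.73, adjusted p = 0.0227). Dppa3, which encodes a maternal and germ cell factor, rose from 49.6 and 57.6 to 94.3 and 102 FPKM (log2 fold change 0.86, adjusted p = 0.0175). The 2 genes thus moved in opposite directions within the list. Klf4 (92.1 and 83.7 against 55.3 and 62.2 FPKM, log2 fold change -0.57, adjusted p = 0.0828) and Tfcp2l1 (52.9 and 51.1 against 37.4 and 39.3 FPKM, log2 fold change -0.43, adjusted p = 0.0783) did not pass, nor did Klf2, Klf5, Nanog or Esrrb.

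Of 12 tested genes of the formative and primed epiblast, 4 rose and 0 fell, against 2.66% and 2.04% of all genes tested. The list median was 0.24. The transcription factor gene Otx2 rose from 9.68 and 11.9 to 21.8 and 16.6 FPKM (log2 fold change 0.77, adjusted p = 0.0389). Pou3f1, for OCT6, rose from 3.35 and 3.69 to 6.09 and 5.54 FPKM (log2 fold change 0.59, adjusted p = 0.0260), and Sall2 from 1.69 and 1.59 to 3.05 and 2.62 FPKM (log2 fold change 0.54, adjusted p = 0.0355). Dnmt3b, for a de novo DNA methyltransferase, rose from 79.8 and 70.0 to 110 and 105 FPKM (log2 fold change 0.52, adjusted p = 0.0311). Fgf5, a defining gene of this state, was at 0.276 and 0.619 against 2.30 and 0.902 FPKM and did not pass, and Lef1 had a value of -0.52 with an adjusted p of 0.0865.

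Dnmt3b was the 1 of 15 tested DNA methylation genes that passed. The genes of the dioxygenases that oxidise 5-methylcytosine did not: Tet1 was at 166 and 131 against 137 and 137 FPKM, Tet2 at 78.6 and 64.7 against 54.3 and 59.5 (adjusted p = 0.130) and Tet3 at 1.04 and 0.872 against 1.12 and 1.06. Of the 10 other tested genes with a CXXC domain 0 passed by limma (2 at an unadjusted p under 0.05), with values from -0.21 (Kdm2b) to 0.14 (Fbxl19). Of 16 tested Polycomb genes 2 rose and 0 fell. Phf19, for an accessory subunit of PRC2, rose from 5.45 and 5.77 to 10.01 and 11.97 FPKM (log2 fold change 0.85, adjusted p = 0.0201), and Cbx7, for a chromodomain subunit of PRC1, from 49.6 and 46.0 to 56.6 and 58.3 (log2 fold change 0.26, adjusted p = 0.0473). The core subunit gene Ezh2 was at 106 and 83.2 against 91.3 and 98.1 FPKM.

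Of 13 tested components and targets of LIF and STAT3 signalling, which holds these cells undifferentiated, Gbx2 fell from 32.4 and 29.6 to 15.1 and 19.6 FPKM (log2 fold change -0.81, adjusted p = 0.0277) while Junb rose from 23.1 and 25.4 to 30.8 and 33.5 FPKM (log2 fold change 0.40, adjusted p = 0.0324). Socs3, the feedback inhibitor, was at 65.1 and 71.2 against 57.8 and 57.9 FPKM (adjusted p = 0.0823). Among 13 tested feedback genes of FGF and ERK signalling, the phosphatase gene Dusp4 rose from 7.09 and 7.28 to 13.7 and 13.97 FPKM (log2 fold change 0.86, adjusted p = 0.0121) and the inhibitor gene Spry4 fell from 57.7 and 63.0 to 42.0 and 45.5 FPKM (log2 fold change -0.46, adjusted p = 0.0227). The 2 feedback genes moved in opposite directions, and Dusp6 (29.9 and 28.7 against 32.2 and 32.8 FPKM) did not pass. Of 12 tested BMP and Nodal targets 1 passed: Id2, an inhibitor of helix-loop-helix factors, rose from 6.48 and 5.43 to 10.1 and 10.9 FPKM (log2 fold change 0.73, adjusted p = 0.0127), while Id1 was at 53.4 and 54.0 against 49.16 and 49.996. Erf, for a repressor that ERK phosphorylates, fell from 50.6 and 49.3 to 32.2 and 36.5 FPKM (log2 fold change -0.53, adjusted p = 0.0160). The phosphatase 2A subunit gene Ppp2r5a fell from 53.4 and 49.2 to 30.1 and 33.6 FPKM (log2 fold change -0.67, adjusted p = 0.00927), 1 of 13 tested subunits.

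**Figure D3:**
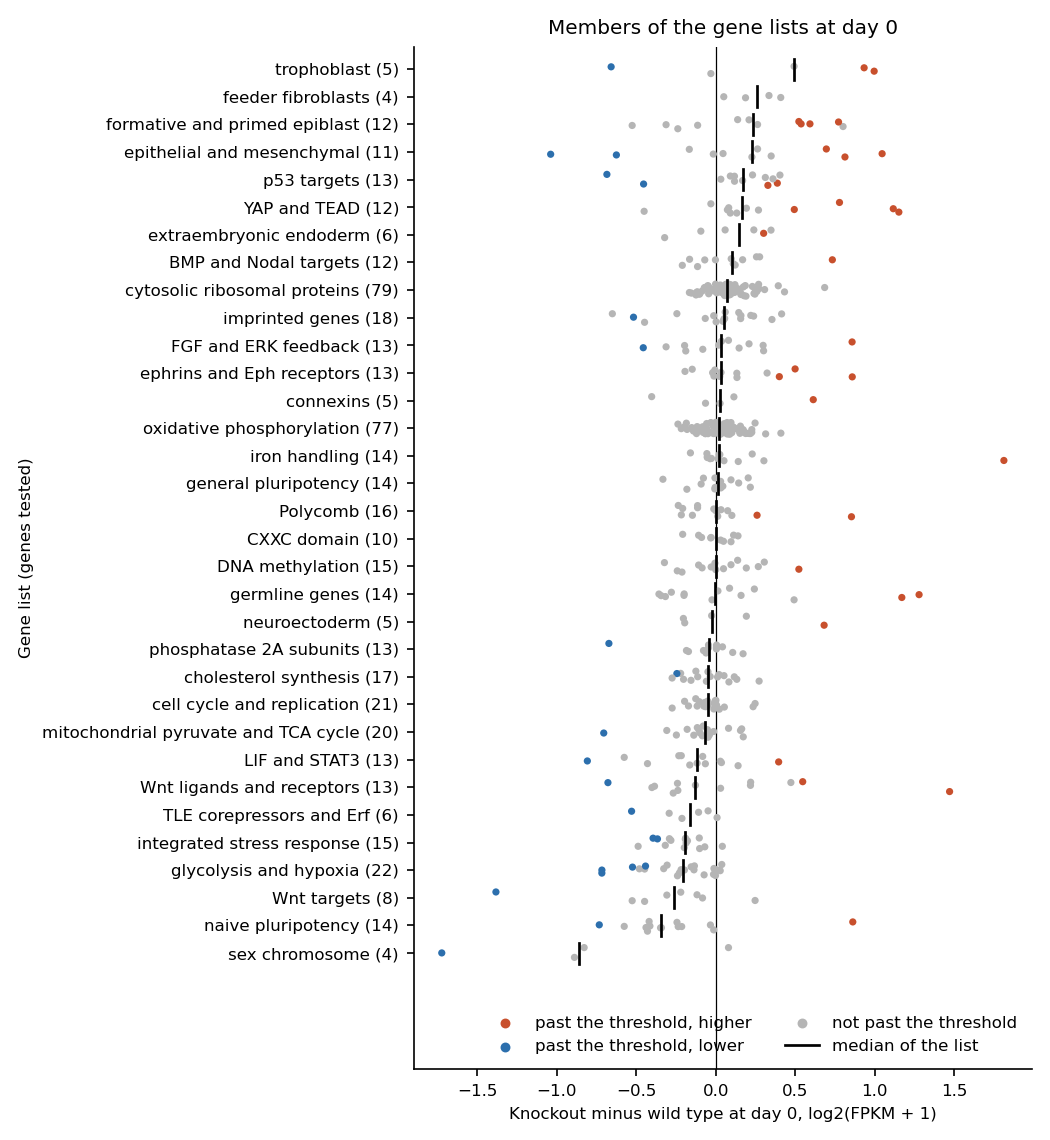
Each row is a gene list with at least 4 genes tested (number in brackets), each point a tested member and each bar the median of the list, on an axis of knockout minus wild type at day 0 in log2(FPKM + 1). Coloured points passed the threshold. Glycolysis and hypoxia, integrated stress response and naive pluripotency genes lie mostly left of zero, and ribosomal protein and oxidative phosphorylation genes hold no coloured point.

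Metabolic genes gave 2 lists in which nearly all members had negative values. Over all genes tested, the median was -0.01 and 2.04% were called lower. Of 22 tested genes of glycolysis and the hypoxia response, 4 fell, 0 rose and 19 had a negative fold change, with a median of -0.21. The 4 genes are known targets of the hypoxia factor HIF: Egln3, for a prolyl hydroxylase (39.1 and 34.9 against 22.4 and 21.9 FPKM, log2 fold change -0.72, adjusted p = 0.0187), Ndrg1 (13.2 and 15.4 against 9.44 and 7.27 FPKM, log2 fold change -0.72, adjusted p = 0.0400), P4ha1, for a collagen prolyl hydroxylase (17.5 and 14.3 against 10.6 and 10.8 FPKM, log2 fold change -0.52, adjusted p = 0.0407), and Vegfa, for an angiogenic growth factor (32.1 and 26.7 against 21.2 and 21.4 FPKM, log2 fold change -0.44, adjusted p = 0.0380). The glycolytic enzymes did not pass: Gapdh had a value of -0.24, Tpi1 of -0.31, Pkm of -0.01 and Ldha of -0.13. Bnip3 (log2 fold change -0.45, adjusted p = 0.0976 by limma), Ankrd37 (0.01) and Hk2 (0.04) are also in the list and did not pass. With quantile normalization Tpi1 was also called lower (adjusted p = 0.0483 by limma), so that 5 members of the list fell. Of 15 tested genes of the integrated stress response, 2 fell, 0 rose and 14 were negative, with a median of -0.19: the glutathione-degrading enzyme gene Chac1 fell from 32.6 and 29.5 to 24.2 and 23.5 FPKM and the serine pathway gene Shmt2 from 137 and 124 to 98.1 and 99.4 FPKM. Their shared regulator Atf4 was at 254 and 265 against 244 and 251 FPKM and did not pass.

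Of 20 tested genes of mitochondrial pyruvate use and the TCA cycle, 1 passed. Mpc1, for a subunit of the pyruvate carrier, stood at 27.8 FPKM in both wild type libraries and at 15.5 and 18.0 in knockout (log2 fold change -0.70, adjusted p = 0.0137). Its partner Mpc2 was at 8.10 and 11.4 against 11.5 and 10.5 FPKM and did not pass. Of 77 tested oxidative phosphorylation genes 0 passed by limma (9 at an unadjusted p under 0.05, median 0.02). The same held for 79 tested cytosolic ribosomal protein genes (1 at an unadjusted p under 0.05, median 0.07) and 21 tested cell cycle and replication genes (4 at an unadjusted p under 0.05, median -0.05). Of 17 tested cholesterol synthesis genes 1 passed, Insig1, at 30.1 and 30.0 against 25.2 and 25.2 FPKM (log2 fold change -0.24, adjusted p = 0.0493), a call lost with either rescaling. Of 13 tested p53 targets 2 rose (Trp53inp1 0.39 and Perp 0.33) and 2 fell (the apoptosis gene Pmaip1 -0.68 and Sesn1 -0.45). In this list 11 genes had a positive and 2 a negative fold change, with a median of 0.17. The cell cycle inhibitor gene Cdkn1a was at 7.91 and 10.4 against 10.5 and 8.26 FPKM.

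Rhox6 and Rhox9, neighbouring X-linked homeobox genes active in germ cells and placenta, were the 2 of 14 tested germline genes that passed. Rhox6 rose from 5.36 and 7.61 to 14.5 and 19.7 FPKM (log2 fold change 1.28, adjusted p = 0.0456) and Rhox9 from 7.46 and 7.79 to 16.9 and 20.0 FPKM (log2 fold change 1.17, adjusted p = 0.0244). They are close paralogues, so the share of reads given to each is uncertain. Klhl13 (chromosome X, 23219271 to 23365161), for a substrate adaptor of a CUL3 ubiquitin ligase, rose from 52.4 and 47.3 to 103 and 101 FPKM (log2 fold change 1.02, adjusted p = 0.0139). Of 406 tested genes of chromosome X, 22 were higher (5.42%) and 8 lower (1.97%), against 2.66% and 2.04% of all genes tested. Chromosome 8 had a similar share of higher genes (5.29%). Of 18 tested imprinted genes 1 passed, the growth inhibitor gene Grb10, which fell from 51.0 and 45.8 to 31.1 and 36.0 FPKM (log2 fold change -0.52, adjusted p = 0.0255).

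Of the 3 tested genes of the Y chromosome 1 passed. Eif2s3y, for a translation initiation factor, stood at 11.2 and 14.5 FPKM in wild type and 3.92 and 2.51 in knockout and fell by 1.72 (SE 0.26, adjusted p = 0.0227). Uty was at 3.55 and 4.26 against 2.14 and 1.22 FPKM (adjusted p = 0.0555) and Ddx3y at 3.19 and 3.73 against 1.76 and 1.28 (adjusted p = 0.0986). Xist was between 2.79 and 3.22 FPKM in all 4 libraries. All 3 Y-linked genes were lower in both knockout libraries, and their part in the results above was not tested.

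Markers of other cell types were mostly low. Of 12 feeder fibroblast genes, 4 were tested and 0 passed by limma (0 at an unadjusted p under 0.05), and their summed level was 10.5 and 10.6 FPKM in wild type and 20.1 and 8.07 in knockout. Knockout replicate 1 was the high library, with Col1a1 at 5.89 FPKM against 2.07 to 2.47 in the other libraries, and Fap was under 0.1 FPKM in all 4. The part of these transcripts in the matrix and YAP genes, of which Cyr61, Ctgf, Amotl2 and Ptpn14 were also highest in knockout replicate 1, was not tested. Of 14 extraembryonic endoderm genes 6 were tested, and their sum ran from 158 to 163 FPKM, with Afp and Ttr under 0.1 in all 4 libraries. Lamc1, Sparc and Lamb1 made up most of that sum. Regulators of the lineage were under the filter and lower in both knockout libraries: Gata6 (0.778 and 0.655 against 0.250 and 0.302 FPKM), Sox7 (1.22 and 1.10 against 0.366 and 0.313 FPKM) and Pdgfra, for a receptor of the lineage (0.521 and 0.447 against 0.248 and 0.184 FPKM). Gata4, Sox17 and Dab2 overlapped between genotypes. The part of such cells in the results above was not tested. The trophoblast list of 9 genes, of which 5 were tested, 2 rose and 1 fell, summed to 61.5 and 59.7 FPKM in wild type and 91.2 and 86.8 in knockout. Its tested members with higher knockout values were Krt8, Krt18 and Tfap2c (35.9 and 34.1 against 49.6 and 49.7 FPKM, adjusted p = 0.103). Eomes, which the list shares with primitive streak, fell from 4.31 and 4.67 to 2.65 and 2.32 FPKM (log2 fold change -0.66, adjusted p = 0.0295 by limma). Cdx2, Elf5, Gata3 and Hand1 were under the mean of 1 FPKM. Gata3 (0.154 and 0.241 against 0.469 and 0.548 FPKM) and Cdx2 (0.0218 and 0.0748 against 0.0856 and 0.301 FPKM) were higher in both knockout libraries. Elf5 overlapped between genotypes. Of 5 tested neuroectoderm genes Nes, for the filament protein nestin, rose from 4.44 and 5.18 to 8.24 and 8.38 FPKM (log2 fold change 0.68, adjusted p = 0.0389). In bulk RNA, a change in the share of cells of a type and a change per cell cannot be told apart.

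Several of the largest fold changes belonged to genes of short RNAs. Snora69, at 0 in both wild type libraries and 14.7 and 9.42 FPKM in knockout, and Mir8112, at 0 and then 5.77 and 7.39 FPKM, were called higher. At day 3 Snora69 was at 5.21 and 0 FPKM in wild type and 11.6 and 4.90 in knockout, and at day 6 at 0 and 11.8 against 11.7 and 0. Mir8112 stayed at 0 in wild type, with 0 and 3.84 FPKM in knockout at day 3 and 18.3 and 4.49 at day 6. Both genes were thus at 0 in 1 replicate and not in the other on a later day. Mir1901 was listed at 33.9 and 29.1 FPKM in wild type and at 0 in both knockout libraries, and Scarna3a at 8.39 and 7.199 and then 0. These genes are 78 to 131 bases long. Each lies inside a longer gene whose own level did not pass (Rpl39, Krcc1, Cables1 and Rfwd2 in that order), and without strand the reads of the pair cannot be told apart. Of 174 short RNA genes tested 3 were higher and 2 lower, against 2.66% and 2.04% of all genes tested. Scarna3a was at 0 in all 4 day 3 libraries, which lowers its estimated spread. More widely, 10 of the 314 higher and 35 of the 240 lower genes had a mean FPKM under 1 at day 3, against 4.54% of genes tested. Among these were Cdx1, A2m, Emp1 and Wnt3a. With the 4 day 0 libraries alone their adjusted p was 0.0612, 0.0687, 0.127 and 0.127 by limma, in that order.

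Other genes with large falls were the kynurenine aminotransferase gene Kyat3 (5.77 and 7.97 against 3.13 and 3.31 FPKM, log2 fold change -0.89), the calcium pump gene Atp2a3 (5.33 and 4.597 against 1.98 and 2.67 FPKM, log2 fold change -0.85) and the transcription factor gene Mitf (5.64 and 7.42 against 3.20 and 3.18 FPKM, log2 fold change -0.83). Igsf21 and Tex40 fell too (-0.93 and -0.98). Gadd45g, a stress-induced gene, rose from 0.915 and 1.69 to 3.64 and 4.18 FPKM (log2 fold change 1.11, adjusted p = 0.0322). Mir669j rose from 84.7 and 52.9 to 151 and 213 FPKM (adjusted p = 0.0389), inside Sfmbt2 (26.3 and 19.4 against 32.3 and 36.7 FPKM), which did not pass.

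At day 3, in the same fit and over the same genes, 407 genes were higher in knockout (3.45% of genes tested) and 125 lower (1.06%). The days share no library, but they share the lines' genotypes and 1 estimate of the spread per gene, so the counts below are a description. Of the 314 genes higher at day 0, 268 (85.4%) also had a positive difference at day 3, against 48.8% of all genes tested, and 97 were called higher at both days, which is 30.9% of the day 0 list and 23.8% of the day 3 list. Of the 240 lower genes, 189 (78.8%) had a negative difference at day 3, against 50.9% of all genes, and 28 were called at both, 11.7% of the day 0 list and 22.4% of the day 3 list. At day 6 the shares of the same sign were 64.3% (against 51.8%) and 50.4% (against 47.9%). Calls of opposite sign at day 3 numbered 2 among the higher genes and 3 among the lower.

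Cxxc5 was called lower at day 3 as well, with log2 values of -1.74, -2.30 and -2.01 at days 0, 3 and 6. Slc40a1 had 1.81, 0.99 and 0.25: at day 3 wild type stood at 7.39 and 7.81 FPKM and knockout at 15.6 and 16.6. At day 3 Rhox6 and Rhox9 had values of 2.82 and 2.68, Klhl13 1.64, Fgfr2 0.45 and Cldn6 0.36. For these 6 genes and Cxxc5 the day 3 value did not differ from the day 0 value past the threshold (adjusted p from 0.0861 for Fgfr2 to 0.377 for Cxxc5). A test of the difference between the day 3 and the day 0 value passed for 17 of all genes tested (0.144%), 3 of them called higher and 6 called lower at day 0. Vegfa turned from lower at day 0 (-0.44) to higher at day 3 (4.15 and 4.08 against 7.33 and 7.27 FPKM, log2 fold change 0.70, adjusted p = 0.00920), as did Eomes (-0.66, then 0.78 with an adjusted p of 0.0150) and Erf (-0.53, then 0.32 with an adjusted p of 0.0426). Nid1, at 4.89 and 5.79 against 4.81 and 4.65 FPKM at day 3, did not pass there.

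**Figure D4:**
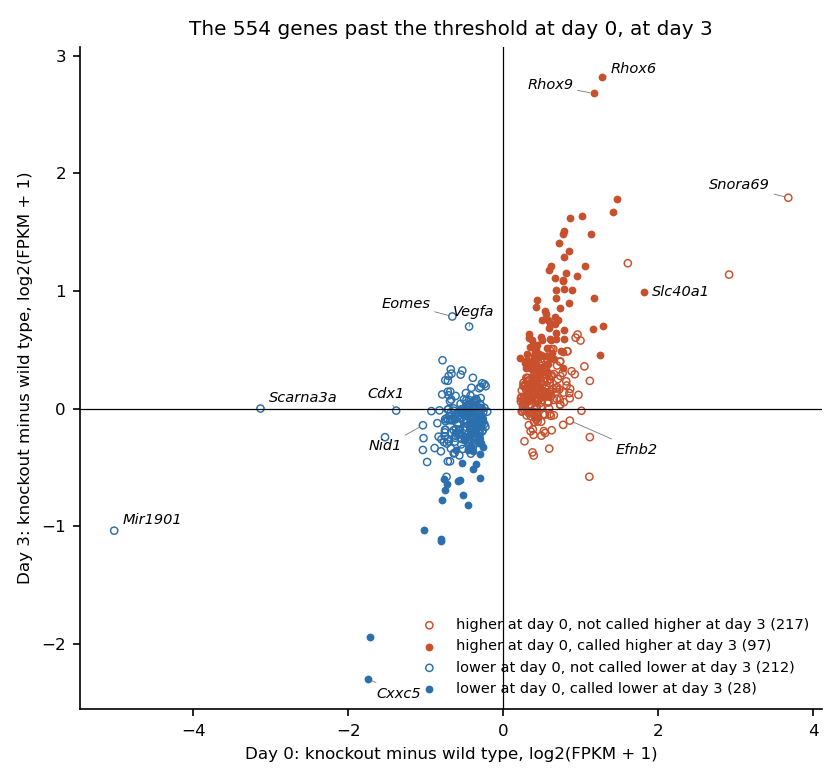
Each point is 1 of the 554 genes called at day 0, with knockout minus wild type at day 0 on the horizontal axis and at day 3 on the vertical axis, both in log2(FPKM + 1). Filled points were called in the same direction at day 3: 97 of the higher genes and 28 of the lower. Rhox6 and Rhox9 lie highest at day 3, and Vegfa and Eomes lie above zero there though lower at day 0.

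Depth, estimated from steps of 1 read in the low FPKM values, was 21.3 and 24.9 M reads in wild type and 21.7 and 16.9 M in knockout at day 0. This puts 33.7 to 49.8 reads behind 1 FPKM of a 2 kb transcript. Of the values used at day 0, 41.6% to 43.3% lay on such steps, against 12% for even spacing, so these depths are approximate. Each day 0 library listed 11664 to 11765 genes at 1 FPKM or more. Replicates differed by over 1.5-fold in 225 genes in wild type and 153 in knockout at day 0, and in 152 and 116 at day 3, against 761 and 427 at day 6, which is why day 6 was left out of the fit. Called genes were spread over the chromosomes, with chromosome medians from -0.12 (chromosome 14) to 0.03 (chromosome 8), 3 tested genes of chromosome Y aside. Chromosome 8 held 36 higher (5.29%) and 9 lower (1.32%) genes of 681, and chromosome 9 held 6 (0.902%) and 25 (3.76%) of 665. Over all genes tested the shares were 2.66% and 2.04%.

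**Figure D5:**
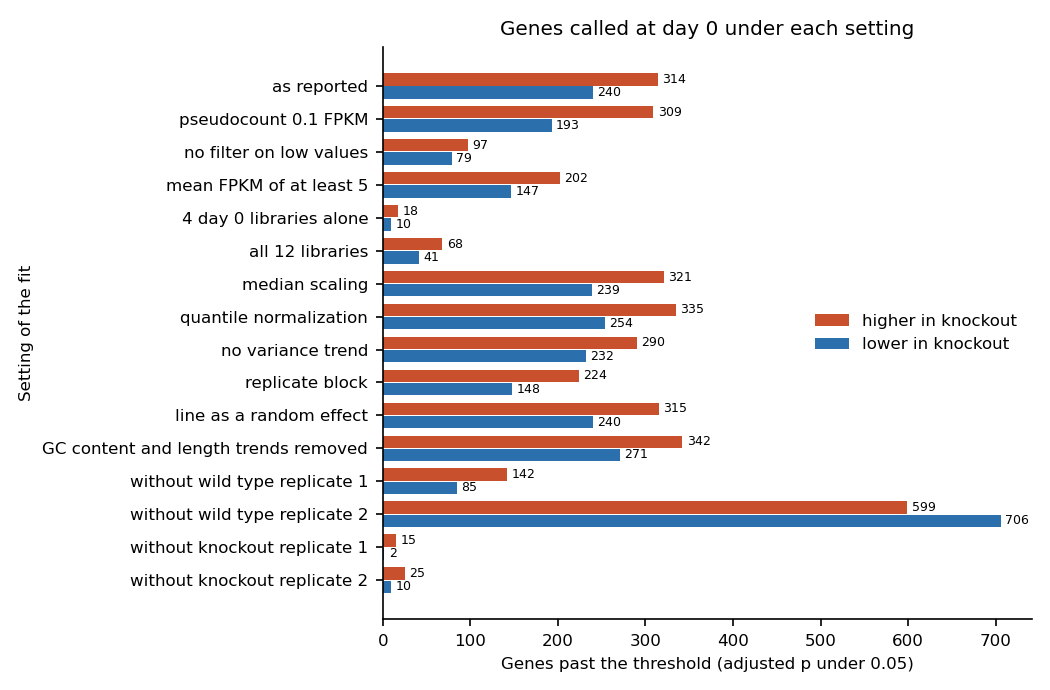
Bars give the number of genes past the threshold at day 0, higher (orange) and lower (blue) in knockout, as reported and under each of 15 alternative settings. Scaling changed the counts little, while the libraries in the fit moved them from 15 and 2 without knockout replicate 1 to 599 and 706 without wild type replicate 2.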

How the data were processed

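The authors deposited FPKM for 24458 genes and 92 ERCC spike-in rows (all at 0, left out) in 12 embryoid body libraries. Reads were single-end, adapters were removed with Trim Galore 0.4.1, and TopHat2 2.0.13 placed the reads on mm10, per the labels' design text. Cufflinks 2.2.1, Cuffdiff and HTSeq 0.6.1 are named without a role, per the submitters' processing notes. Annotation and strand use: not given in the sources used here.

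Columns were matched to samples by genotype, replicate and day. log2(FPKM + 1) was fitted with limma 3.58.1 in R 4.3.3 over the 8 libraries of days 0 and 3, with a mean per group and a variance trend, two-sided, with Benjamini-Hochberg adjustment over the genes whose day 0 mean reached 1 FPKM. The fit was tested on simulated data. Positions and promoters come from RefSeq GRCm38.p6, in which 23661 genes were found under their symbol, 696 under a synonym, and 101 were not found.

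Named were Cxxc5, the list members, the 15 called genes with the largest fold changes in each direction (non-overlapping, predicted genes left out) and genes called in the fits over 4, 8 and 12 libraries. Members, lists and settings were chosen with earlier results of these data known. The table of separate stem cell libraries was not used here, because its replicates could not be matched to labelled samples, so the comparison and naming rule planned on it were not run. Replicate numbers did not pair the genotypes (r = 0.03 between the replicate differences of wild type and knockout at day 0, across genes), and at most 3 values above 0 were identical in any 2 libraries. Between day 0 and day 3 the replicate differences had r = -0.03 in wild type and -0.01 in knockout. With the line as a random effect, the estimated correlation within a line was 0.03. Estimated depth sets a precision of counting only, since reads carried no molecular identifiers.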

Additional observations from a re-analysis of the deposited data

Results flagged for a closer look

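The knockout difference at day 3 differed from that at day 0, by limma's test of the interaction, for 8 of the named genes, given here as the day 3 minus the day 0 log2 difference. Scarna3a had 3.13 (adjusted p = 0.00209), from a difference of -3.13 at day 0 to a value of 0 in all 4 day 3 libraries. Eomes had 1.44 (adjusted p = 0.0389), Vegfa 1.14 (adjusted p = 0.0389) and Erf 0.85 (adjusted p = 0.0389), all lower in knockout at day 0 and higher at day 3. Mpc1 had 0.98 (adjusted p = 0.0448) and Nid1 0.89 (adjusted p = 0.0483), lower at day 0 and not past the threshold at day 3. Efnb2 had -0.96 (adjusted p = 0.0389) and Gja1 -0.68 (adjusted p = 0.0448), higher at day 0 and not past the threshold at day 3. In wild type Efnb2 itself went from 2.75 and 3.06 FPKM at day 0 to 27.3 and 29.6 at day 3, and Gja1 from 40.4 and 42.3 to 232 and 231. The other named genes did not pass this test.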

How the results depend on the processing

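The counts of 314 higher and 240 lower genes stayed within 1.5 times with a pseudocount of 0.1 (309 and 193), median scaling (321 and 239), quantile normalization (335 and 254), no variance trend (290 and 232), the line as a random effect (315 and 240) and, added after the data were seen, GC content and length trends removed (342 and 271, over the 99.41% of genes with values). They moved to 97 and 79 with no filter on low values, 202 and 147 at a mean FPKM of at least 5, 18 and 10 with the 4 day 0 libraries alone, and 68 and 41 with all 12. With the replicate block they were 224 and 148. Leaving out 1 library gave 2 to 706 lower and 15 to 599 higher genes. Of the named genes, 3 changed sign without 1 library, with no call at the reversed sign: Pou5f1 (-0.0879 without wild type replicate 1, up to 0.178 without wild type replicate 2), Sox2 (-0.00646 without knockout replicate 2, up to 0.0719 without knockout replicate 1) and Tet1 (-0.278 without wild type replicate 2, where it was called lower with an adjusted p of 0.0299 by limma, up to 0.0640 without wild type replicate 1). The alternatives planned for the table of separate stem cell libraries were not run, as that table was not used here. Depth limits low genes most: an FPKM near 1 in 2 kb rests on an estimated 33.7 to 49.8 reads.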

Other observations

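A cluster of zinc finger genes on chromosome 4 held 4 of the 7 genes named Zfp that fell, in a window chosen after values were seen. Of 27 tested genes from Tnfrsf1b to 2510039O18Rik (145212368 to 147947316 in mm10), 7 were called lower and 0 higher at day 0, and 25 had a negative difference. Over all genes tested, 2.04% were lower, 2.66% were higher and the median difference was -0.01. The genes called lower were Zfp534 (90.8 and 78.1 against 59.1 and 58.0 FPKM), Zfp980 (94.8 and 84.1 against 65.9 and 63.9 FPKM), Zfp600 (16.2 and 15.7 against 8.33 and 9.07 FPKM), Zfp991 (9.22 and 7.74 against 4.22 and 5.38 FPKM), Rex2 (13.5 and 11.8 against 6.93 and 6.83 FPKM), Znf41-ps and Smarca5-ps. At day 3, 9 genes of the window were called lower and 0 higher. Members of this cluster are near-identical in sequence, so reads may be split among them and each value is uncertain. Over all 333 tested genes named Zfp, 7 fell and 0 rose, against 2.04% and 2.66% of all genes tested, with a median of -0.06. The 3 of these 7 outside the window were Zfp39 (-0.42), Zfp423 (-0.50) and Zfp763 (-0.35).

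The 2-cell-like genes, which mark rare cells of stem cell cultures, were near 0 in both genotypes: of the 9 listed genes, 0 reached a mean of 1 FPKM, and their sum was 0.900 and 0.651 FPKM in wild type and 0.578 and 1.09 in knockout.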
